A study of Mus musculus with 24 samples.

Results

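Gene expression was compared between cystic Pkd1 RC/- and noncystic Pkd1 RC/+ mouse kidneys in which the miR-17 motif of Pkd1 had not been edited. The comparison used 8 of the 24 libraries of the series, RC/+ replicates 4 to 6 and RC/- replicates 13 to 17, with 1 mouse per library. A column of the count table was taken for a sample when its header was the number that ends the sample's title. Samples titled D18 or D53, the names of the edited lines, were left out of the contrast. They did enter the fit, in which all 24 libraries set the expression filter and the estimate of spread. All mice were labelled C57BL/6, for which the study's methods give a C57BL/6 J background, and were 18 days old, and total RNA came from whole, flash-frozen kidneys. RC is a missense allele of Pkd1 (arginine to cysteine) that leaves less mature polycystin-1, and every mouse carried 1 copy of it. The other Pkd1 allele was floxed in every mouse compared here, as the study's methods describe. The RC/+ mice, labelled control, had no Cre by the genotype given there, so both alleles stayed in place. The RC/- mice, labelled cystic, carried Ksp-Cre, a recombinase driven by the promoter of Cdh16 (Ksp-cadherin) in epithelial cells of the kidney tubule, which removes the floxed allele from those cells. The Cre transgene and the cystic genotype therefore cannot be told apart in any value below, and cell types in which this promoter is silent keep the floxed allele.

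Polycystin-1, the product of Pkd1, and polycystin-2, the product of Pkd2, form a receptor and channel complex of the primary cilium of tubule cells, and loss of either causes autosomal dominant polycystic kidney disease. When the dose of functional polycystin-1 falls below what a tubule cell needs, the tubule widens into a cyst lined by dividing, fluid-secreting epithelium, and the tissue around it takes up macrophages and scar-forming cells. Cyst cells are known for raised c-Myc and cAMP signaling and for a shift from mitochondrial respiration towards glycolysis.

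The series concerns a motif in the 3′ UTR of Pkd1 to which the microRNA miR-17 binds, and this motif was intact in both groups. It is shown here with the microRNAs that share its seed, since it is the element that makes these 8 kidneys the unedited arm. A microRNA pairs with its targets through the seed, bases 2 to 8 from the 5′ end, which is in capitals in the mature sequences below. They are from RefSeq on GRCm38.p6, where miR-17 (chr14:115043684-115043706) and miR-20a (chr14:115044183-115044205) lie on the plus strand, and miR-93 (chr5:138165574-138165596) and miR-106b (chr5:138165787-138165807) on the minus strand.
mmu-miR-17-5p: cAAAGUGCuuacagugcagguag
mmu-miR-20a-5p: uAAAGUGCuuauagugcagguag
mmu-miR-93-5p: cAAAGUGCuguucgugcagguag
mmu-miR-106b-5p: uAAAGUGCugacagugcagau
All 4 share the seed AAAGUGC. Its complement occurs 1 time in the 3′ UTR of Pkd1, at chr17:24595732-24595738 (GRCm38, plus strand), in exon 46 of 46 and at position 193 of the 969 bases of the UTR. The 3′ UTR of Pkd2 also holds 1 such site, at chr5:104503821-104503827 on the plus strand, in exon 15 of 15 and at position 133 of 2131 bases. The site is in capitals in the 30 bases shown for each gene.
Pkd1 site: cctgtccacatatggggcttctGCACTTTa
Pkd2 site: tgaccaattgttataattttctGCACTTTa

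Depth was similar in both groups, with 22.6 to 25.2 M counts per library, and values are given as CPM, which scale a gene's count by the total of its library, in replicate order, 4 to 6 for RC/+ and 13 to 17 for RC/-. Pairs of libraries within a group differed by more than sampling noise (chi-square per degree of freedom 11.6 to 46.7), so none was a copy of another. The libraries were kidney by their markers, with 3438 to 3735 CPM of the proximal tubule phosphate transporter Slc34a1 in RC/+ and 649.5 to 1793 CPM in RC/-, and Umod, the urinary protein of the thick ascending limb, at 1575 to 1752 CPM in RC/+ and 817 to 1343 CPM in RC/-. Xist and Ddx3y counts gave 2 female and 1 male RC/+ libraries and 3 female and 2 male RC/- libraries. RC/- replicate 16 stood apart: the summed level of 12 adrenal genes was 2272 CPM there, 15.5 to 20.3 CPM in the other RC/- libraries and 7.48 to 11.2 CPM in RC/+. This library was kept in the comparisons with the edited lines, the shares by motif and by gene type, and the counts without overlap. The RC/- against RC/+ fit and the tests of library composition were therefore also run without it. Genes of the lists that were then no longer called included Apoa1, Areg, C1ra, C6, Ccl5, Ifit1 and Isg15 (adjusted p = 0.055 to 0.11), and Star gained a call. Mitochondrially encoded genes made up 6.18% ± 0.326 of an RC/+ library (SD, n = 3) and 3.67% ± 0.320 of an RC/- library (SD, n = 5), a difference at the smallest p that an exact two-sided permutation test of 5 against 3 libraries can give (p = 0.0179, adjusted over 3 composition measures 0.0268). The 20 most abundant genes made up 11.9% ± 0.474 and 7.55% ± 0.360 (SD, n = 3 and 5; exact permutation p = 0.0179, adjusted 0.0268). Genes of at least 1 CPM numbered 14981 ± 35.7 in RC/+ and 15223 ± 123 in RC/- (SD, n = 3 and 5; exact permutation p = 0.0357, adjusted 0.0357). In whole kidneys, fewer cells of a type and less RNA per cell cannot be told apart.

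Of 22570 genes tested by limma-trend, 8497 differed between RC/- and RC/+ kidneys at an adjusted p below 0.05, which is 37.6% of the genes and the background against which each count below is read. Of these, 5753 were higher (25.5%) and 2744 lower (12.2%) in RC/-. The RC/- and RC/+ libraries did not overlap for 8495 genes (37.6%), 5870 higher (26%) and 2625 lower (11.6%). Changes of at least 1 on the log2 scale numbered 1733 higher and 920 lower, those of at least 2 numbered 320 and 49, and those of at least 3 numbered 72 and 0. Over all genes the log2 fold change had a median of 0.14 with scaling by the total count and 0.01 with TMM factors, which centre the bulk of genes on each other. With TMM factors 34.3% of genes were called, 3844 higher (17%) and 3896 lower (17.3%), so the split of directions depended on the scaling, and 6588 genes were called under both scalings, all in the same direction. Log2 fold changes below are on the total-count scale and are read against 0.14, and a call of a named gene that TMM factors removed is given. Without replicate 16, 35.6% of genes were called, 5489 higher (24.3%) and 2535 lower (11.2%). With the 9 noncystic libraries of all lines as controls 49.1% were called, 7498 higher (33.2%) and 3594 lower (15.9%).

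**Figure D1:**
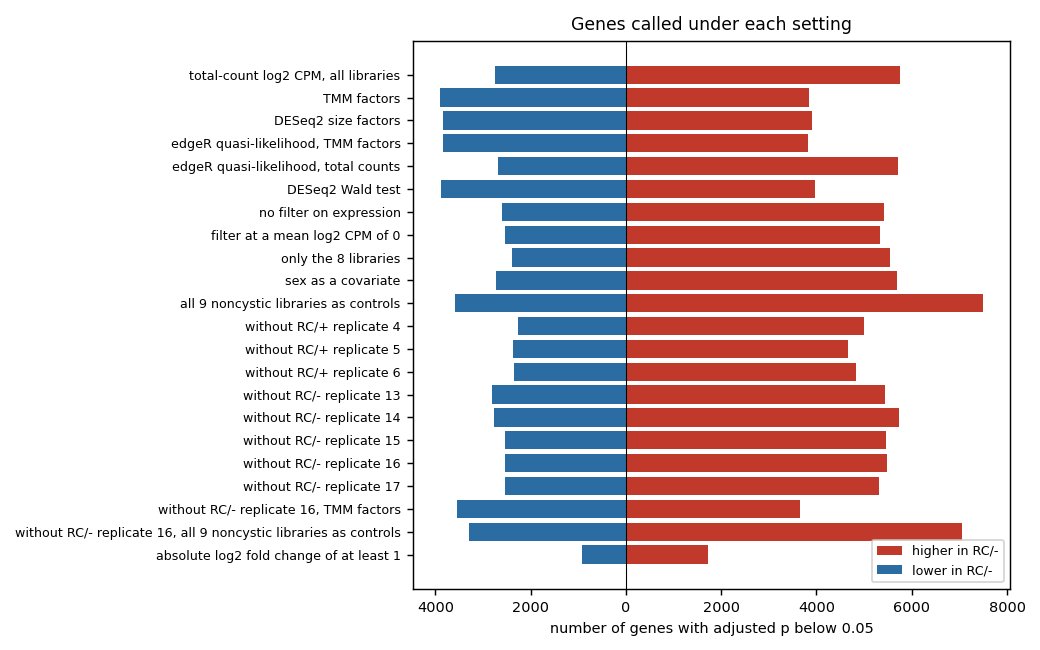
Number of genes with an adjusted p below 0.05 (x axis) under each setting (y axis), with genes higher in RC/- to the right and genes lower to the left. The total-count bar runs to 5753 higher and 2744 lower, and the TMM bar is nearly even at 3844 and 3896.

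The genes of the polycystins themselves changed little at the RNA level. Pkd1 (chr17:24549834-24596508, GRCm38, plus strand) was at 49.9, 50.7 and 51.5 CPM in RC/+ and 65.2, 58.3, 52, 55.1 and 64.4 CPM in RC/-. Each RC/- library lay above the RC/+ libraries by a small margin, and the difference did not pass the test (log2 fold change 0.21, SE 0.12, adjusted p = 0.17). The whole-gene count also includes any RNA made from a recombined floxed allele and RNA from cells without Cre, and Tsc2 overlaps 3.98% of the bases in Pkd1 exons. Pkd2 (chr5:104459450-104505819) was at 224, 255 and 222 CPM in RC/+ and 232, 252, 229, 210.0 and 244 CPM in RC/-. The 2 groups covered the same range, and the gene was not called (log2 fold change 0.00, SE 0.07, adjusted p = 1). Pkhd1, which encodes fibrocystin, the protein lost in recessive polycystic kidney disease, was at 162, 164 and 168 CPM in RC/+ and 222, 238, 246, 184 and 259.7 CPM in RC/-. Each RC/- library exceeded each RC/+ library (log2 fold change 0.47, SE 0.09, adjusted p = 0.00023).

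Of 5 other genes the study follows, 4 were higher in RC/-. Myc, the growth regulator c-Myc, was at 10.4, 12.8 and 12.5 CPM in RC/+ and 29.8, 30, 33.4, 46.9 and 39.8 CPM in RC/-. The lowest cystic kidney had more than 2-fold the level of the highest control, and the mean was 3.03-fold that of RC/+ (log2 fold change 1.57, SE 0.16, adjusted p = 2.6e-08). Mrc1, the mannose receptor of tissue macrophages, was at 13.2, 11.6 and 14.2 CPM in RC/+ and 52.9, 37.6, 52.1, 69.4 and 63.3 CPM in RC/-, again without overlap (log2 fold change 2.05, SE 0.19, adjusted p = 7.4e-09). Yap1, the Hippo pathway coactivator, rose by a smaller step, from 114, 127 and 113 CPM to 147, 149.9, 141, 148 and 142 CPM (log2 fold change 0.30, SE 0.05, adjusted p = 9.9e-05). Creb1, the cAMP-responsive transcription factor, was at 52.5 to 57.2 CPM in RC/+ and 61.2 to 72.4 CPM in RC/- (log2 fold change 0.28, SE 0.08, adjusted p = 0.0046), and its call was lost with TMM factors (log2 fold change 0.14, adjusted p = 0.10). Mettl3, the catalytic subunit of the mRNA adenosine methyltransferase, was at 18.6 to 21.6 CPM in RC/+ and 20.5 to 25 CPM in RC/- and did not pass the test (log2 fold change 0.16, SE 0.10, adjusted p = 0.22). In all, 5 of these 8 genes were higher and none lower. Apart from Pkhd1, which was added here for its part in cystic disease, they were taken from the study, so their direction is not independent evidence.

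**Figure D2:**
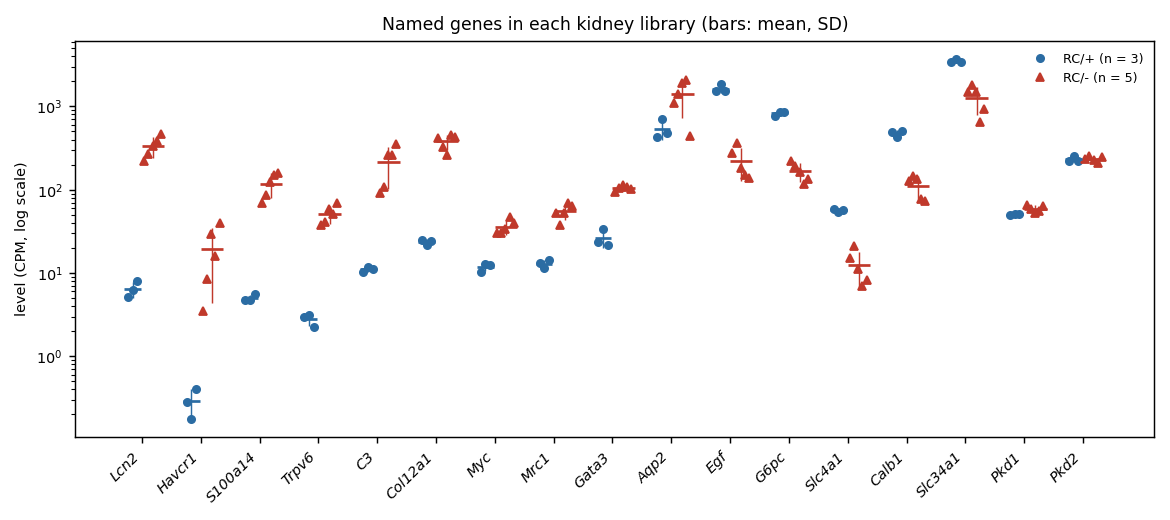
Level in CPM (log scale) of 17 named genes in each RC/+ library (circles) and RC/- library (triangles), with horizontal bars at the group means and vertical bars for 1 SD. Lcn2, Havcr1, S100a14 and Trpv6 are separated by more than a factor of 8, Egf, G6pc, Slc4a1 and Calb1 are lower in every RC/- library, and Pkd2 overlaps completely.

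The largest changes were ranked among called protein-coding genes with at least 5 CPM in the higher group and no overlap between the groups. The 10 largest increases were Hsd3b1, Lcn2, Havcr1, Sprr2f, Akr1c18, Mybpc2, S100a14, Cyp11b1, Cyp21a1 and Trpv6. Of these, Hsd3b1, Akr1c18, Cyp11b1 and Cyp21a1 are steroid enzymes of the adrenal gland and ranked there through replicate 16, and without it Cyp4f39, C3, Il18r1 and Col12a1 took their places. With the 8 libraries fitted alone, Akr1c18, Cyp11b1 and Cyp21a1 were not called (adjusted p = 0.056, 0.073 and 0.0654). Lcn2 (chr2:32384633-32388252) encodes lipocalin 2, an iron-binding protein released by damaged tubule cells. It was at 5.14, 6.28 and 7.99 CPM in RC/+ and 220.0, 271, 331, 382 and 466 CPM in RC/-. The cystic mean was 51.6-fold the control mean (log2 fold change 5.65, SE 0.39, adjusted p = 1.2e-10). Havcr1 (chr11:46735080-46779578) encodes KIM-1, a phosphatidylserine receptor that is nearly silent in the healthy proximal tubule. Its levels were 0.286, 0.177 and 0.401 CPM in RC/+ and 3.46, 8.49, 29.8, 16.1 and 40.2 CPM in RC/-. All cystic kidneys were far above the controls, but they spread more than 10-fold among themselves, with replicates 13 and 14 lowest (log2 fold change 5.32, SE 0.62, adjusted p = 3.2e-07). Sprr2f, a cornified-envelope protein of stratified epithelia, was at 0, 0.265 and 0.12 CPM in RC/+ and 2.48, 3.38, 9.25, 7.72 and 9.25 CPM in RC/-, and it too was lowest in replicates 13 and 14 (log2 fold change 5.01, SE 0.55, adjusted p = 1.3e-07).

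S100a14 (chr3:90526856-90528837), a small calcium-binding protein of epithelial cells, was at 4.78, 4.73 and 5.58 CPM in RC/+ and 68.8, 87.2, 124, 149 and 160.0 CPM in RC/-. Its cystic mean was 23.4-fold higher (log2 fold change 4.46, SE 0.25, adjusted p = 5.4e-12). Trpv6 (chr6:41620624-41636405), an apical calcium channel of the distal nephron, went from 2.94, 3.14 and 2.25 CPM in RC/+ to 37.6, 40.8, 57.9, 50.9 and 69.6 CPM in RC/- (log2 fold change 4.15, SE 0.19, adjusted p = 2.3e-13). This was the smallest SE among the genes of these rankings that rose. Mybpc2, a myosin-binding protein of fast skeletal muscle, was at 0.613, 0.531 and 0.723 CPM in RC/+ and 11.3, 17.1, 15.3, 14.9 and 26.8 CPM in RC/- (log2 fold change 4.56, SE 0.51, adjusted p = 1.5e-07). The other 12 tested genes of the skeletal muscle list were not called, with a list median of 0.16, and their part in the change of Mybpc2 was not tested. C3, the central complement component, was at 10.2, 11.7 and 11.2 CPM in RC/+ and 91.8, 108, 263, 258 and 356 CPM in RC/-. Replicates 15, 16 and 17 had more than 2-fold the level of replicates 13 and 14 (log2 fold change 4.09, SE 0.31, adjusted p = 6.0e-10). Cyp4f39, a fatty acid hydroxylase, was at 0.245, 0.354 and 0.522 CPM in RC/+ and 6.67, 6.93, 7.11, 5.04 and 7.12 CPM in RC/- (log2 fold change 3.91, SE 0.33, adjusted p = 2.7e-09). Il18r1, a receptor chain for interleukin 18, was at 1.8, 1.81 and 1.24 CPM in RC/+ and 19.4, 26.1, 28.2, 28.5 and 33.3 CPM in RC/- (log2 fold change 4.0, SE 0.25, adjusted p = 2.1e-11).

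By the same rule, which requires that the groups do not overlap, the 10 largest decreases were Egf, Hpd, G6pc, Ugt3a1, Slc22a22, Slc4a1, Malrd1, Slitrk6, Pvalb and Calb1. Egf (chr3:129677565-129755316), the epidermal growth factor precursor made by the thick ascending limb and distal convoluted tubule, was at 1548, 1834 and 1529.7 CPM in RC/+ and 279, 364, 181, 149 and 139 CPM in RC/-. Cystic kidneys kept between 139 and 364 CPM, and the RC/+ mean was 7.36-fold the RC/- mean (log2 fold change -2.98, SE 0.31, adjusted p = 5.6e-08). G6pc, the last enzyme of gluconeogenesis, fell from 757, 865 and 860.0 CPM to 220.0, 195, 162, 118 and 136 CPM (log2 fold change -2.35, SE 0.20, adjusted p = 3.9e-09). Hpd, an enzyme of tyrosine breakdown, was at 18, 34.2 and 24.8 CPM in RC/+ and 5.6, 11.1, 2.11, 3.06 and 1.11 CPM in RC/-, with a wide spread among the cystic kidneys (log2 fold change -2.83, SE 0.57, adjusted p = 0.00033). Slc4a1, the basolateral anion exchanger of type A intercalated cells, was at 59.3, 53.7 and 56.4 CPM in RC/+ and 15, 20.9, 11.1, 7.01 and 8.27 CPM in RC/- (log2 fold change -2.28, SE 0.24, adjusted p = 7.3e-08). Calb1, calbindin, the calcium buffer of the connecting tubule, was at 489, 429.7 and 512 CPM in RC/+ and 128, 148, 134, 77 and 74.1 CPM in RC/-, and replicates 16 and 17 were lowest (log2 fold change -2.14, SE 0.18, adjusted p = 2.6e-09). Pvalb, parvalbumin of the distal convoluted tubule, was at 16.3, 8.4 and 11.4 CPM in RC/+ and 3.72, 4.22, 3.14, 2.14 and 0.885 CPM in RC/- (log2 fold change -2.18, SE 0.36, adjusted p = 3.8e-05). Ugt3a1, Slc22a22, Malrd1 and Slitrk6 had log2 fold changes of -2.33, -2.32, -2.28 and -2.2.

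In CPM, a scale not adjusted for gene length, the largest rises were those of Spp1, Clu, Col3a1, Aqp2 and Bcam. Spp1, osteopontin, a secreted matrix protein that attracts macrophages, was at 1316, 1307 and 1163 CPM in RC/+ and 2382, 3361, 4940.3, 4452 and 3794 CPM in RC/- (log2 fold change 1.54, SE 0.14, adjusted p = 1.2e-08). Clu, the extracellular chaperone clusterin, was at 225, 247 and 232 CPM in RC/+ and 1205, 1612, 2702, 2268 and 3070.1 CPM in RC/- (log2 fold change 3.13, SE 0.19, adjusted p = 1.8e-11). Both were lowest in replicate 13 among the cystic kidneys. Bcam, a laminin receptor of epithelial basement membranes, was at 501, 568 and 547 CPM in RC/+ and 1339, 1702, 1356, 1213 and 1152 CPM in RC/- (log2 fold change 1.32, SE 0.11, adjusted p = 2.7e-09). Among the largest falls in CPM were those of mt-Co1, Gpx3, mt-Cytb and Kap. Gpx3, the plasma glutathione peroxidase secreted by the proximal tubule, fell from 10144, 12606 and 10341 CPM to 4446, 5794, 6105, 4242 and 4063 CPM (log2 fold change -1.18, SE 0.19, adjusted p = 2.7e-05). Kap, the kidney androgen-regulated protein of the proximal tubule, was at 7448, 7769 and 7229.9 CPM in RC/+ and 3672, 3996, 3108, 2484 and 2510.3 CPM in RC/- (log2 fold change -1.27, SE 0.13, adjusted p = 2.7e-08).

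Genes of nephron segments were grouped by lists, each read against the 25.5% higher and 12.2% lower of all genes tested and the all-gene median of 0.14. All 20 proximal tubule transport genes fell, with a median log2 fold change of -1.35 and no overlap between groups for any of them. Slc34a1, the sodium-phosphate cotransporter, was at 3454, 3735 and 3438 CPM in RC/+ and 1496, 1793, 1469.9, 649.5 and 918 CPM in RC/- (log2 fold change -1.58, SE 0.21, adjusted p = 2.6e-06). Aqp1, the water channel of the proximal tubule and thin descending limb, was at 1116, 1101 and 1079.7 CPM in RC/+ and 644, 765, 405, 374 and 382 CPM in RC/- (log2 fold change -1.16, SE 0.16, adjusted p = 2.4e-06). Replicates 16 and 17 were among the lowest for both genes. The deepest fall in the list was that of Slc7a13, an amino acid transporter of the last proximal segment, from 131 to 151 CPM to 18.1 to 65.7 CPM (log2 fold change -1.92, SE 0.27, adjusted p = 4.9e-06). Slc5a12, a lactate transporter, had a log2 fold change of -1.8, and Slc6a19, a neutral amino acid transporter, one of -1.64.

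Proximal tubule metabolism followed the same direction, with 19 of 22 genes lower, none higher and a median of -1.22. Hnf4a, a transcription factor that maintains proximal tubule identity, had a log2 fold change of -1.22. Pck1, which starts gluconeogenesis, was at 2462, 2686 and 3424 CPM in RC/+ and 1028, 963, 1383, 1035 and 359 CPM in RC/-, lowest in replicate 17 (log2 fold change -1.7, SE 0.30, adjusted p = 7.8e-05). Miox, the myo-inositol oxygenase of this segment, was at 1390.5, 1398 and 1339 CPM in RC/+ and 519.9, 711, 552, 258 and 271 CPM in RC/- (log2 fold change -1.69, SE 0.24, adjusted p = 4.5e-06). Ass1, an enzyme of arginine synthesis, fell from 1570.3 to 1647 CPM to 229 to 569 CPM (log2 fold change -1.94, SE 0.20, adjusted p = 4.0e-08), but its reads may be shared with the near-identical copy Gm5424. Fatty acid oxidation genes fell by smaller steps, with log2 fold changes of -0.90 for Acadm, -0.42 for Cpt1a and -0.32 for Hadha. Cyp2e1, Cyp4b1 and Cyp24a1 did not pass the test.

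The promoter of Slc3a1, the heavy subunit of the cystine transporter (log2 fold change -1.37, SE 0.18, adjusted p = 2.1e-06), is shown because it holds the letters of an HNF4 site (CAAAGTCCA), in capitals, 39 bases before the start site, in the window chr17:85028097-85028396 on the plus strand of GRCm38.p6.
Slc3a1 promoter: cttggctggaCAAAGTCCAgccatgattat
These letters, searched on both strands from 250 bases before to 50 after each start site, were in 0.468% of 18174 windows. They were in 1.58% of the windows of genes lower by at least 1 on the log2 scale and in 0.41% of those of genes higher by at least 1. The window of Trpv6, which was higher in RC/- (log2 fold change 4.15), holds these letters too, 149 bases before the start site. A match of letters is not a bound site, and 26% of the exon bases of Slc3a1 are shared with Prepl.

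In the thick ascending limb list 9 of 12 genes were lower and 2 higher (median -0.89). Besides Egf, Slc12a1, the sodium-potassium-chloride cotransporter that loop diuretics block, was at 2414, 2509.8 and 2213 CPM in RC/+ and 1476, 1635, 876, 794 and 762 CPM in RC/-, with replicates 13 and 14 closest to the controls (log2 fold change -1.18, SE 0.22, adjusted p = 0.00015). Umod, uromodulin, was at 1664, 1752 and 1575 CPM in RC/+ and 999, 1343, 1125, 956 and 817 CPM in RC/-, a shallower fall (log2 fold change -0.69, SE 0.15, adjusted p = 0.00077). Casr, the calcium-sensing receptor, and Ptger3, a prostaglandin E2 receptor, had log2 fold changes of -1.39 and -1.34. Of the 3 claudins in the list, Cldn10 fell (-0.90) and the others went the other way. Cldn19 was at 118, 109 and 98.8 CPM in RC/+ and 166, 221, 157, 132 and 124 CPM in RC/- (log2 fold change 0.53, SE 0.14, adjusted p = 0.0046). Cldn16, its partner in paracellular magnesium transport, was at 30.2 to 35.9 CPM in RC/+ and 35.7 to 46.8 CPM in RC/- (log2 fold change 0.28, SE 0.10, adjusted p = 0.036) and lost its call with TMM factors (adjusted p = 0.26). Cldn16, Cldn19 and, in the next lists, Trpv5, Foxi1, Csf1, Il6 and members given only by a log2 fold change were picked out after their values were seen.

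Of the 12 genes of the distal convoluted and connecting tubule, 11 were lower and 1 higher (median -1.22). Slc12a3, the thiazide-sensitive sodium-chloride cotransporter, was at 713, 681 and 678 CPM in RC/+ and 285, 268, 247, 121 and 156 CPM in RC/- (log2 fold change -1.76, SE 0.21, adjusted p = 3.4e-07). Klk1, tissue kallikrein, was at 1590.4, 1796 and 1605 CPM in RC/+ and 408, 519, 567, 372 and 393 CPM in RC/-, and its cystic values were among the tightest of the list (log2 fold change -1.9, SE 0.13, adjusted p = 6.7e-11). S100g, calbindin-D9k, fell from 638 to 883 CPM to 157 to 258 CPM (log2 fold change -1.71, SE 0.14, adjusted p = 1.8e-09). Trpv5, the apical calcium channel of this segment and the closest relative of Trpv6, was the exception at 22.4, 26.8 and 22.9 CPM in RC/+ and 39.4, 30.1, 53.7, 38.1 and 66 CPM in RC/- (log2 fold change 0.87, SE 0.19, adjusted p = 0.00076). Both apical calcium channels, Trpv5 and Trpv6, were higher and both calbindins, Calb1 and S100g, lower in the cystic kidneys.

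Principal cell genes of the collecting duct rose together, 10 of 12 higher and none lower, with a median of 1.19. Gata3, a transcription factor of the collecting duct, was at 23.4, 33.3 and 21.6 CPM in RC/+ and 94.1, 105, 115, 107 and 102 CPM in RC/-. The 5 cystic kidneys lay within 94.1 to 115 CPM, well above the controls (log2 fold change 2.02, SE 0.12, adjusted p = 8.0e-12). Hsd11b2, which inactivates glucocorticoids so that aldosterone can act, was at 283, 249 and 229 CPM in RC/+ and 677, 896, 1367, 1086 and 1084 CPM in RC/- (log2 fold change 1.98, SE 0.15, adjusted p = 8.4e-10). Scnn1b, the beta subunit of the epithelial sodium channel, was at 101, 93.6 and 93.6 CPM in RC/+ and 214, 275, 379, 257 and 346 CPM in RC/- (log2 fold change 1.59, SE 0.14, adjusted p = 5.3e-09). Fxyd4, a regulator of the sodium pump, was at 57.7, 61.9 and 63.3 CPM in RC/+ and 173, 239, 297, 236 and 187 CPM in RC/- (log2 fold change 1.87, SE 0.14, adjusted p = 6.7e-10). Aqp2, the vasopressin-regulated water channel, was at 435, 701 and 474 CPM in RC/+ and 1103, 1420.0, 1927, 2101 and 439 CPM in RC/-. Here replicate 17 fell among the controls while the other 4 cystic kidneys were above them (log2 fold change 1.23, SE 0.37, adjusted p = 0.010), and without RC/+ replicate 4 the call was just lost (adjusted p = 0.0527). Aqp4, the basolateral water channel, overlapped between the groups at 52 to 91.2 CPM in RC/+ and 55.5 to 161 CPM in RC/- and did not pass the test (log2 fold change 0.49, SE 0.24, adjusted p = 0.11), but did so without replicate 17 (adjusted p = 0.0107). Avpr2, the vasopressin receptor, was counted at under 0.5 CPM in all 8 libraries and did not pass either (adjusted p = 0.60).

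Intercalated cells, the acid-base cells of the same duct, did not follow the principal cells, with 2 of 13 genes higher and 7 lower (median -0.46). With TMM factors 2 were higher and 10 lower (median -0.60). Slc26a4, pendrin, the apical anion exchanger of type B cells, was at 101, 90.7 and 99.4 CPM in RC/+ and 45.6, 43.6, 61.3, 30.9 and 41.4 CPM in RC/- (log2 fold change -1.15, SE 0.15, adjusted p = 1.1e-06). Atp6v0a4, a subunit of the proton pump, was at 340.4, 380.1 and 413 CPM in RC/+ and 192, 224, 251, 180.2 and 219.8 CPM in RC/- (log2 fold change -0.83, SE 0.13, adjusted p = 2.0e-05). In contrast, Foxi1, the transcription factor that specifies intercalated cells, was higher at 46.6, 48.3 and 42 CPM in RC/+ and 61.6, 78.9, 95, 67.7 and 107 CPM in RC/- (log2 fold change 0.82, SE 0.15, adjusted p = 9.3e-05). So was Rhcg, an ammonia channel found in both cell types, at 211, 227 and 234 CPM in RC/+ and 331, 366, 568, 407 and 534 CPM in RC/- (log2 fold change 0.95, SE 0.13, adjusted p = 4.1e-06). Atp6v1b1, another pump subunit, was not called.

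**Figure D3:**
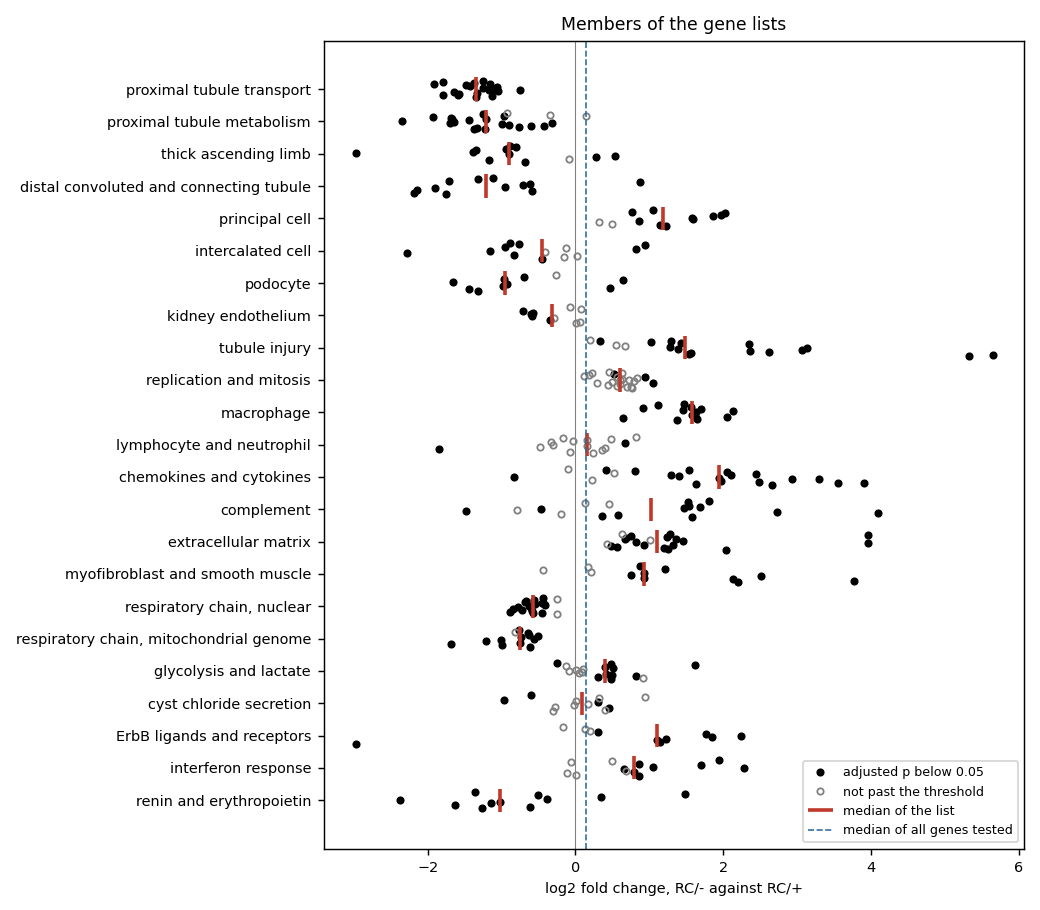
Log2 fold change of RC/- against RC/+ (x axis) for each tested member of 23 gene lists (y axis), with filled points for genes called at an adjusted p below 0.05, open points for the others, red ticks for list medians and a dashed line at the all-gene median of 0.14. The medians of nephron segment lists except principal cells lie left of the line, and those of the injury, macrophage, chemokine and matrix lists lie right of it. Single members of some of these lists lie on the other side.

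Markers of the glomerulus and of vessels were lower as well. Of 10 podocyte genes 7 were lower and 2 higher (median -0.95). Nphs1, nephrin of the slit diaphragm, was at 32.7, 36.7 and 28.2 CPM in RC/+ and 18.7, 10.3, 11.8, 10.8 and 14.7 CPM in RC/- (log2 fold change -1.32, SE 0.16, adjusted p = 5.0e-07). Cdkn1c, a cell-cycle inhibitor of mature podocytes, ranged from 23.9 to 98.6 CPM among the cystic kidneys against 129.5 to 153 CPM in the controls, with replicate 13 highest (log2 fold change -1.67, SE 0.43, adjusted p = 0.0034). The exceptions were Synpo, an actin-binding protein, at 81.1 to 90.6 CPM in RC/+ and 92.3 to 153 CPM in RC/- (log2 fold change 0.47, SE 0.12, adjusted p = 0.0034), and Plce1, a phospholipase, at 13.4 to 17.5 CPM in RC/+ and 21.1 to 25.4 CPM in RC/- (log2 fold change 0.64, SE 0.12, adjusted p = 0.00014). Among 10 endothelial genes 5 were lower and none higher (median -0.32). They included Tek, the angiopoietin receptor (log2 fold change -0.71, SE 0.14, adjusted p = 0.00026), Plvap of fenestrated capillaries (log2 fold change -0.57, SE 0.15, adjusted p = 0.0038), Emcn (-0.58) and Ehd3 of glomerular endothelium (-0.61), whereas the pan-endothelial Pecam1 and Cdh5 did not pass the test.

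Tubule injury and cyst-epithelium genes had a median of 1.48, with 15 of 18 higher and none lower. Lcn2, Havcr1, Clu and Spp1 were given above. Krt20, a keratin of the urothelium and of injured tubules, was at 0.572, 3.67 and 2.49 CPM in RC/+ and 5.43, 5.45, 30, 41.5 and 23.2 CPM in RC/-, with replicates 15 to 17 well above replicates 13 and 14 (log2 fold change 3.07, SE 0.58, adjusted p = 0.00017). Keratins of simple epithelia rose as well, with log2 fold changes of 2.62 for Krt18, 2.36 for Krt19, 1.57 for Krt8 and 1.38 for Krt7. Sox9, a transcription factor of tubule repair, changed by 1.28, and Cd44, a hyaluronan receptor, by 2.35. Vcam1, Cdkn1a and Itgb6 did not pass the test. The promoter windows of Havcr1 and Sprr2f are shown because both hold the letters of an AP-1 site (TGANTCA), in capitals. In Havcr1 the motif begins 11 bases after a start site, so within transcribed sequence, in the window chr11:46750918-46751217. That window lies inside the gene span given above, not at its first base. In Sprr2f the motif begins 197 bases before the start site, in the window chr3:92364937-92365236. Both windows are on the plus strand of GRCm38.p6.
Havcr1 promoter: ggtcagtaccaTGAATCAgattcaagtctt
Sprr2f promoter: aaactgaatatTGAGTCAcagtgctcaaca
Of all windows 6.14% hold these letters, against 10% for genes higher by at least 1 on the log2 scale and 6.46% for genes lower by at least 1. Windows of Hpd and Slitrk6, among the 10 largest decreases, hold them too.

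Replication and mitosis genes were not widely called: 3 of 22 were higher and none lower, although the list median was 0.61. Mki67, the proliferation antigen Ki-67, was at 79.1, 41.6 and 80.2 CPM in RC/+ and 154, 107, 129, 116 and 62.2 CPM in RC/-. RC/+ replicate 5 was low and RC/- replicate 17 fell within the control range, and the gene did not pass the test (log2 fold change 0.76, SE 0.39, adjusted p = 0.13). Ccne1, cyclin E1, was at 3.88, 2.88 and 5.66 CPM in RC/+ and 10.1, 7.05, 11, 8.56 and 5.88 CPM in RC/- (log2 fold change 1.04, SE 0.33, adjusted p = 0.015). Tpx2, a spindle protein, was at 23.8, 13.6 and 25 CPM in RC/+ and 50.4, 37.3, 46.3, 40.9 and 24.3 CPM in RC/- (log2 fold change 0.94, SE 0.32, adjusted p = 0.022). Replicate 17 was the lowest cystic kidney in both, and without RC/+ replicate 5 neither was called (adjusted p = 0.107 and 0.168). Mcm2, a subunit of the replicative helicase, was at 36.2 to 50.4 CPM in RC/+ and 54.5 to 68.7 CPM in RC/- (log2 fold change 0.52, SE 0.18, adjusted p = 0.028). The call of Mcm2 was lost with TMM factors (adjusted p = 0.088) and without RC/+ replicate 5 (0.159). Leaving out RC/+ replicate 4, RC/- replicate 15 or RC/- replicate 17 also ended it (adjusted p = 0.0701, 0.0594 and 0.0502). Pcna, the replication clamp, was at 107 to 139 CPM in RC/+ and 127 to 153 CPM in RC/- and did not pass (log2 fold change 0.22, SE 0.14, adjusted p = 0.24), and its reads may be shared with the pseudogene Pcna-ps2.

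All 15 macrophage genes were higher, with a median of 1.57 and no overlap between groups for any of them. Lyz2, lysozyme, was at 51.7, 39.1 and 37.9 CPM in RC/+ and 142, 142, 193, 277 and 209 CPM in RC/- (log2 fold change 2.13, SE 0.15, adjusted p = 1.7e-10). Cd68, a lysosomal glycoprotein of phagocytes, was at 7.11, 6.63 and 7.75 CPM in RC/+ and 20.5, 19, 23.1, 27.9 and 22.8 CPM in RC/- (log2 fold change 1.64, SE 0.13, adjusted p = 1.4e-09). The Fc receptor Fcgr1 was at 3.27, 3.27 and 3.49 CPM in RC/+ and 8.64, 6.25, 13.5, 17.4 and 12.9 CPM in RC/- (log2 fold change 1.7, SE 0.24, adjusted p = 4.2e-06). In all 3 genes replicate 16 was highest. Csf1r, the receptor that macrophages need for survival, rose least in the list, from 92.5, 92 and 94.5 CPM to 139.7, 125, 141, 163 and 164 CPM (log2 fold change 0.65, SE 0.08, adjusted p = 1.6e-06). Lymphocyte and neutrophil genes were not widely called, with 1 of 15 higher, 1 lower and a median of 0.16. Cd8a, the coreceptor of cytotoxic T cells, was lower at 3.88, 3.49 and 2.13 CPM in RC/+ and 0.513, 1.18, 1.03, 0.588 and 0.841 CPM in RC/- (log2 fold change -1.85, SE 0.28, adjusted p = 1.4e-05). Cd79b, of the B cell receptor, was at 1.33 to 2.29 CPM in RC/+ and 2.58 to 3.38 CPM in RC/- (log2 fold change 0.66, SE 0.23, adjusted p = 0.025) and lost its call with TMM factors (adjusted p = 0.072). Cd4, Cd3e and the neutrophil genes S100a8 and Csf3r were not called.

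Signals that recruit myeloid cells moved with them: 17 of 21 chemokine and cytokine genes were higher and 1 lower, with the highest median of the kidney lists, 1.94. Csf1, the ligand of Csf1r, was at 15.6, 13.3 and 16.8 CPM in RC/+ and 59.9, 53.7, 77.5, 66.8 and 71 CPM in RC/- (log2 fold change 2.1, SE 0.13, adjusted p = 1.6e-11), and Il34, its other ligand, had a log2 fold change of 2.44. Ccl2, the main monocyte chemoattractant, had one of 2.66. Ccl8, of the same chemokine family, was at 0.408, 0.0442 and 0 CPM in RC/+ and 1.28, 2.79, 2.42, 4.53 and 2.26 CPM in RC/- (log2 fold change 3.9, SE 0.52, adjusted p = 1.8e-06). Ccl7 was at 0.122, 0.354 and 0.0401 CPM in RC/+ and 2.91, 1.69, 2.62, 3.78 and 2.04 CPM in RC/- (log2 fold change 3.56, SE 0.37, adjusted p = 6.7e-08). Neither reached 0.5 CPM in any control. Cxcl1, a neutrophil chemoattractant, was at 1.23, 0.708 and 0.883 CPM in RC/+ and 4.45, 2.45, 8.86, 17.2 and 14 CPM in RC/-, with replicates 15 to 17 above replicates 13 and 14 (log2 fold change 2.92, SE 0.45, adjusted p = 1.4e-05). The related Cxcl2 was also higher in replicates 15 to 17 than in replicates 13 and 14, at 0.0817, 0.0885 and 0.321 CPM in RC/+ and 0.898, 0.676, 3.53, 3.99 and 4.42 CPM in RC/- (log2 fold change 3.29, SE 0.55, adjusted p = 3.8e-05). Il6 was counted in every cystic library at 0.641, 0.338, 0.278, 0.21 and 0.177 CPM, which were 15, 8, 7, 5 and 4 reads, and had 1 read in the 3 controls together (adjusted p = 0.00027), so its fitted fold change depends on the prior count and is not given. The 1 gene that fell was Cxcl12, a homeostatic chemokine, at 389.7, 321 and 354 CPM in RC/+ and 251, 201, 176, 218 and 162 CPM in RC/- (log2 fold change -0.83, SE 0.11, adjusted p = 1.5e-06).

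The promoter windows of Cxcl1, Cxcl2, Il6 and Csf1 hold the letters of an NF-kB site with 1 base left free, on either strand and in capitals, and are shown because these genes of one list were all higher. The windows on GRCm38.p6 are chr5:90890995-90891294 for Cxcl1, chr5:90903649-90903948 for Cxcl2 and chr5:30012864-30013163 for Il6, on the plus strand, and chr3:107760420-107760719 for Csf1, on the minus strand. The motif begins 71, 97, 44 and 154 bases before the start site in that order.
Cxcl1 promoter: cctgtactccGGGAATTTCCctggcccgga
Cxcl2 promoter: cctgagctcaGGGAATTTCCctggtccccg
Il6 promoter: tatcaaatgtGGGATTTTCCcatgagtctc
Csf1 promoter: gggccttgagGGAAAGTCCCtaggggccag
These letters were in 0.457% of all windows, in 1.3% of the windows of genes higher by at least 1 on the log2 scale and in 0.396% of those of genes lower by at least 1. Other motifs searched did not all have a larger share among the genes that rose. An E-box (CACGTG) was in 8.81% of all windows, 5.94% of those of genes higher and 8.18% of those of genes lower by at least 1, and a CRE in 2.59%, 1.78% and 1.06%. A TEAD motif (CATTCC) was in 13.1%, 15.4% and 14.1%, and an ISRE in 3.17%, 4.99% and 3.17%.

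Complement genes were mixed, 10 of 16 higher (8 without replicate 16) and 2 lower (median 1.02). Besides C3, C4b was at 2.9, 3.58 and 2.49 CPM in RC/+ and 20, 12.8, 14.7, 50.7 and 17.2 CPM in RC/-, with replicate 16 far above the rest (log2 fold change 2.73, SE 0.34, adjusted p = 7.7e-07; without replicate 16, log2 fold change 2.4). C5ar1, the receptor for the C5a fragment, was at 1.76, 1.55 and 1.28 CPM in RC/+ and 5, 4.81, 5.92, 6.34 and 5.71 CPM in RC/- (log2 fold change 1.81, SE 0.18, adjusted p = 2.6e-08). Among the lower was Cfb, the protease factor B of the alternative pathway, which was at 9.76, 9.47 and 10.1 CPM in RC/+ and 3.89, 3.72, 4.05, 2.22 and 3.63 CPM in RC/- (log2 fold change -1.49, SE 0.28, adjusted p = 0.00015), although 80% of the exon bases of Cfb are shared with Gm20547. Interferon-response genes were higher in 8 of 13 cases (median 0.79), 6 with TMM factors and 6 without replicate 16. Oas1a was at 2.08, 2.48 and 2.69 CPM in RC/+ and 8.55, 7.9, 16.4, 18.8 and 11.9 CPM in RC/- (log2 fold change 2.28, SE 0.27, adjusted p = 3.2e-07), with reads possibly shared with Oas1g. Mx1 was at 0.572, 0.31 and 0.361 CPM in RC/+ and 0.983, 0.887, 2.42, 2.81 and 1.19 CPM in RC/- (log2 fold change 1.7, SE 0.42, adjusted p = 0.0024). Both were highest in replicates 15 and 16. Ifit3, another gene of this response, was at 41 to 49.3 CPM in RC/+ and 29.4 to 54.2 CPM in RC/- and not called (-0.12, adjusted p = 0.62), and it has a near-identical copy, Ifit3b.

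Extracellular matrix genes were higher in 17 of 20 cases and lower in none (median 1.10). Col12a1, a collagen that coats fibrils, was at 25, 21.8 and 24.4 CPM in RC/+ and 423, 329, 263, 450.3 and 431 CPM in RC/-, the largest change of the list with that of Timp1 (log2 fold change 3.97, SE 0.23, adjusted p = 1.1e-11). Timp1, an inhibitor of matrix metalloproteinases, was at 1.06, 0.929 and 1.45 CPM in RC/+ and 10.9, 14, 21.7, 30.1 and 22.7 CPM in RC/- (log2 fold change 3.96, SE 0.36, adjusted p = 8.4e-09). Col1a1, of type I collagen, was at 211, 132 and 199.6 CPM in RC/+ and 804, 708, 581, 841 and 738 CPM in RC/- (log2 fold change 2.04, SE 0.25, adjusted p = 8.4e-07). Col3a1, of type III collagen, was at 815, 559 and 771 CPM in RC/+ and 2014, 1461, 1186, 1980.1 and 1599.8 CPM in RC/- (log2 fold change 1.2, SE 0.28, adjusted p = 0.0016). Col4a1 of the basement membrane rose by a smaller step (log2 fold change 0.57, SE 0.15, adjusted p = 0.0037). Fn1, fibronectin, was at 179 to 263 CPM in RC/+ and 537 to 754 CPM in RC/- (log2 fold change 1.46, SE 0.32, adjusted p = 0.00082). Among 12 myofibroblast and smooth muscle genes 9 were higher and none lower (median 0.93). Acta2, smooth muscle actin, was at 90.2, 102 and 113 CPM in RC/+ and 630.2, 437, 310.3, 540.0 and 483 CPM in RC/- (log2 fold change 2.2, SE 0.30, adjusted p = 2.6e-06). Actg2, enteric smooth muscle actin, was at 0.694, 1.73 and 2.81 CPM in RC/+ and 30.2, 17.1, 9.45, 29.4 and 32.9 CPM in RC/- (log2 fold change 3.77, SE 0.50, adjusted p = 1.7e-06). Cnn1, calponin, was at 3.06, 3.27 and 5.74 CPM in RC/+ and 34.1, 17.9, 10.8, 34.8 and 24.2 CPM in RC/- (log2 fold change 2.51, SE 0.35, adjusted p = 4.5e-06). Replicate 15 was the lowest cystic kidney in all 3. The pericyte and fibroblast receptors Pdgfrb (0.21) and Pdgfra (-0.44) did not pass the test.

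Genes of mitochondrial respiration fell in both genomes. Of 19 nuclear genes of the respiratory chain 17 were lower and none higher (median -0.58), and with TMM factors all 19 were lower. Ndufs1, of complex I, was at 289, 254 and 298 CPM in RC/+ and 169, 169, 149.9, 138 and 136 CPM in RC/- (log2 fold change -0.88, SE 0.09, adjusted p = 2.2e-08). Sdhb, of complex II, was at 475, 470.3 and 479.8 CPM in RC/+ and 283, 286, 268, 260.2 and 223 CPM in RC/- (log2 fold change -0.85, SE 0.08, adjusted p = 4.8e-09). Uqcrc2, of complex III, fell to 237 to 258 CPM from 409 to 439 CPM (log2 fold change -0.78, SE 0.07, adjusted p = 5.3e-09). Atp5b, of ATP synthase, fell to 2121 to 2531 CPM from 3478 to 3829 CPM (log2 fold change -0.67, SE 0.08, adjusted p = 8.4e-07). Of the 13 genes of the mitochondrial genome 12 were lower (median -0.75). The subunit of cytochrome oxidase mt-Co1 was at 22855, 26015 and 24258 CPM in RC/+ and 14741, 14619, 14380.0, 16591 and 12825 CPM in RC/- (log2 fold change -0.74, SE 0.12, adjusted p = 2.7e-05), with a near-identical nuclear copy, Gm13340. The complex I subunits mt-Nd5 (-1.0) and mt-Nd2 (-0.99) fell by about 1 on the log2 scale. Proximal tubule genes, of a segment rich in mitochondria, fell in the same libraries, and their part in these falls was not tested.

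Glycolysis genes were less uniform: 9 of 17 were higher and 1 lower (median 0.40), and 6 higher and 2 lower with TMM factors. Slc16a3, the lactate exporter MCT4, was at 8.09, 23.5 and 14.9 CPM in RC/+ and 51.8, 53, 35.2, 53.1 and 31.2 CPM in RC/- (log2 fold change 1.62, SE 0.35, adjusted p = 0.00074). Pfkp, a phosphofructokinase isoform, was at 90.9, 102 and 109 CPM in RC/+ and 183, 191, 188, 176 and 150.3 CPM in RC/- (log2 fold change 0.82, SE 0.11, adjusted p = 1.4e-06). Pkm, pyruvate kinase M, was at 561 to 680.4 CPM in RC/+ and 731 to 966 CPM in RC/- (log2 fold change 0.51, SE 0.09, adjusted p = 6.7e-05), with a near-identical pseudogene, Gm6560. Hk2, a hexokinase, was at 4.61, 16 and 8.87 CPM in RC/+ and 25.3, 21.7, 10.7, 15 and 13.7 CPM in RC/-. RC/+ replicate 5 lay above 3 of the 5 cystic kidneys, and the gene was not called (log2 fold change 0.91, SE 0.42, adjusted p = 0.094); without that control the adjusted p was 0.0275. Gapdh was at 1706 to 1800.2 CPM in RC/+ and 1596 to 2074 CPM in RC/- (log2 fold change 0.08, and -0.06 with TMM factors), and neither value passed the test.

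Genes of cyst chloride secretion were near the background, 2 of 12 higher, 2 lower and a median of 0.09. Cftr, the cAMP-gated chloride channel, was at 6.25, 7.92 and 5.62 CPM in RC/+ and 4.19, 4.94, 6.47, 4.32 and 7.08 CPM in RC/- and not called (log2 fold change -0.30, SE 0.17, adjusted p = 0.18). Slc12a2, the cotransporter that loads chloride into secreting cells, was at 50.8 to 83.5 CPM in RC/+ and 69.2 to 118 CPM in RC/- (log2 fold change 0.46, SE 0.16, adjusted p = 0.030), and its call was lost with TMM factors (adjusted p = 0.16). Prkar1a, a regulatory subunit of protein kinase A, rose by a small step (log2 fold change 0.31, SE 0.06, adjusted p = 0.00041), while Pde4c, a cAMP phosphodiesterase, fell from 87.8, 85.1 and 79.2 CPM to 53.8, 56.8, 41.8, 29.9 and 37.2 CPM (log2 fold change -0.97, SE 0.17, adjusted p = 6.6e-05).

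Ligands of the ErbB receptors moved in opposite directions. While Egf fell, 6 other ligands of this receptor family were called higher, and 7 of 11 genes of the list were higher with a median of 1.10. Btc, betacellulin, was at 16.1, 12.8 and 13.4 CPM in RC/+ and 54.2, 60.9, 77.4, 87.2 and 59.2 CPM in RC/- (log2 fold change 2.24, SE 0.20, adjusted p = 6.4e-09). Nrg1, neuregulin 1, was at 3.47, 4.16 and 3.37 CPM in RC/+ and 11.4, 10.6, 15.5, 12.4 and 13.5 CPM in RC/- (log2 fold change 1.76, SE 0.20, adjusted p = 1.5e-07). Tgfa was at 8.49, 10.4 and 10.2 CPM in RC/+ and 18.3, 20.8, 21.7, 22.1 and 25.2 CPM in RC/- (log2 fold change 1.15, SE 0.11, adjusted p = 1.2e-08). Hbegf was at 21, 24.3 and 20.3 CPM in RC/+ and 43.1, 49.4, 41.2, 48.4 and 52.7 CPM in RC/- (log2 fold change 1.1, SE 0.10, adjusted p = 1.6e-08). Areg, amphiregulin, had a log2 fold change of 1.23 and an adjusted p of 0.038. Its call was lost with TMM factors (adjusted p = 0.056), without RC/- replicate 16 (0.11), without RC/+ replicate 4 (0.176), with the 8 libraries alone (0.0607) and with edgeR or DESeq2 (0.0806 to 0.133). Ereg, epiregulin, with 4 reads in the 3 controls and 7 to 12 reads in each cystic library, had an adjusted p of 0.0025, but was not called with edgeR (adjusted p = 0.0523 with total counts and 0.0758 with TMM factors) or DESeq2 (0.126). Among the receptors Egfr was higher by 0.30 (adjusted p = 0.042; 0.32 with TMM factors), and Erbb2, Erbb3 and Erbb4 did not pass the test.

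Endocrine genes of the kidney were lower, 9 of 11 in the list of the renin system, erythropoietin and hypoxia, with a median of -1.03. Ren1, renin, was at 167, 216 and 167 CPM in RC/+ and 83.7, 43.6, 80.3, 54 and 159.8 CPM in RC/-. Replicate 17 lay just below the controls and the other 4 cystic kidneys at or under 83.7 CPM (log2 fold change -1.26, SE 0.33, adjusted p = 0.0035). Ace, the angiotensin-converting enzyme, was at 374, 326 and 332 CPM in RC/+ and 126, 164, 113, 74.6 and 95.1 CPM in RC/- (log2 fold change -1.63, SE 0.16, adjusted p = 2.1e-08). Epo, erythropoietin, was at 1.72, 2.39 and 0.883 CPM in RC/+ and 0.428, 0.0845, 0.477, 0.168 and 0.177 CPM in RC/-, low in every library and lower in each cystic one (log2 fold change -2.38, SE 0.66, adjusted p = 0.0058). Vegfa, which tubule cells and podocytes secrete, was at 346 to 373 CPM in RC/+ and 242 to 342 CPM in RC/- (log2 fold change -0.39, SE 0.10, adjusted p = 0.0048). The 2 genes that rose were Egln3, a prolyl hydroxylase induced by hypoxia, at 20.3, 37.2 and 21.8 CPM in RC/+ and 76.7, 119.6, 59.4, 64.4 and 53.5 CPM in RC/- (log2 fold change 1.49, SE 0.24, adjusted p = 2.7e-05) and Hif1a, at 164 to 179 CPM in RC/+ and 189.9 to 266 CPM in RC/- (log2 fold change 0.35, SE 0.12, adjusted p = 0.022), the latter not called with TMM factors (adjusted p = 0.17). Car9, another gene induced by hypoxia, was lower at 8.45, 9.16 and 5.1 CPM in RC/+ and 4.36, 4.27, 3.02, 1.72 and 1.77 CPM in RC/- (log2 fold change -1.36, SE 0.32, adjusted p = 0.0014).

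The 5 cystic kidneys did not share one degree of change. For each library the median over a list of its log2 CPM minus the RC/+ mean was taken. Proximal transport genes were at -0.87 in replicate 14 and -1.05 in replicate 13 but at -1.56 in replicate 17 and -1.96 in replicate 16. Thick ascending limb genes ran from -0.26 in replicate 14 to -1.27 in replicate 16. Macrophage genes were lowest in replicate 14 (1.04) and highest in replicate 16 (2.12), and chemokine genes were at 1.19 and 1.20 in replicates 13 and 14 against 1.99 to 2.13 in the other 3. Matrix genes had another order, highest in replicate 13 (1.38) and lowest in replicate 15 (0.65), while principal cell genes were highest in replicate 15 (1.89) and lowest in replicate 13 (1.0). Replication genes were at 0.05 in replicate 17, the lowest of the cystic kidneys, and the RC/+ libraries themselves ran from -0.59 to 0.30 in this list, wider than in any other kidney list except that of lymphocytes and neutrophils. Replicates 13, 15 and 16 were female and 14 and 17 male, and the part of sex in this spread was not tested.

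**Figure D4:**
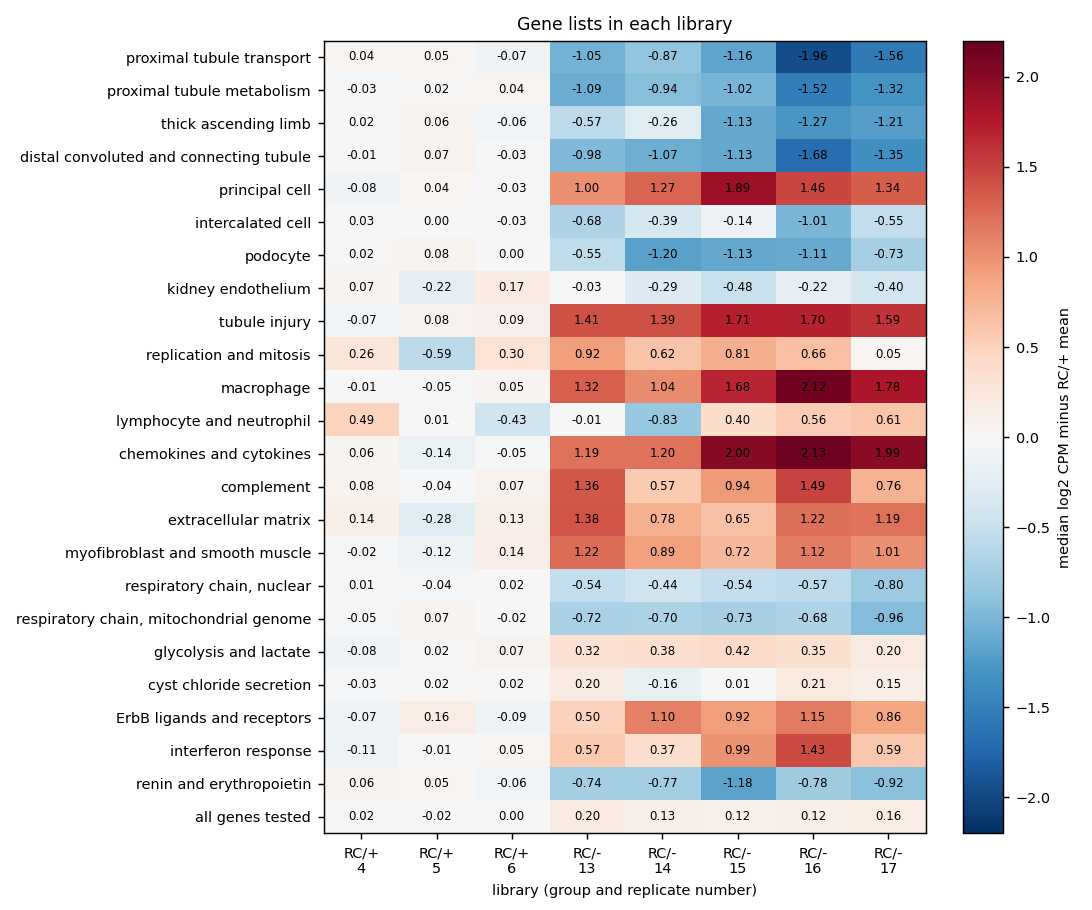
Median over each list (rows) of a library's log2 CPM minus the RC/+ mean, for the 3 RC/+ and 5 RC/- libraries (columns), as colour and number. Replicates 13 and 14 are palest and replicate 16 deepest for the proximal tubule transport, macrophage and chemokine lists, and the all-gene row lies between 0.12 and 0.20 in the RC/- libraries.

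Transcripts of tissues next to or outside the kidney were checked by lists. Of 11 tested adrenal genes 5 were higher. Hsd3b1 was at 0, 0 and 0.0401 CPM in RC/+ and 1.84, 1.22, 1.91, 452 and 1.15 CPM in RC/-. Star, the cholesterol carrier of steroid cells, was at 5.19, 3.1 and 4.74 CPM in RC/+ and 8.94, 6.71, 6.67, 678 and 6.37 CPM in RC/-. Replicate 16 was far above every other library for both. Chga, of the adrenal medulla, was at 119.6 CPM there against 0.487 to 2.74 CPM. The other 4 cystic kidneys were also above the controls, at 0.914 to 1.28 CPM of Cyp11a1 against 0.0803 to 0.163 CPM and 0.684 to 1.23 CPM of Cyp21a1 against 0.0442 to 0.12 CPM. Without replicate 16 the adjusted p was 0.015 for Cyp11a1, 0.013 for Cyp21a1 and 0.0041 for Hsd3b1. Their levels were 0.248% to 0.364% of that of replicate 16 for Cyp11a1, 0.245% to 0.468% for Cyp21a1 and 0.252% to 0.419% for Hsd3b1. Over all libraries of the edited lines, levels ran from 0 to 1.23 CPM for Cyp11a1 and from 0 to 1.03 CPM for Cyp21a1. They ran from 0 to 1.53 CPM for Hsd3b1 and from 3.92 to 8.34 CPM for Star, ranges not split by genotype. For each of these genes the highest edited value lay within the range of RC/- replicates 13, 14, 15 and 17. Such levels were therefore not particular to unedited cystic kidneys. Where these transcripts came from was not tested.

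**Figure D5:**
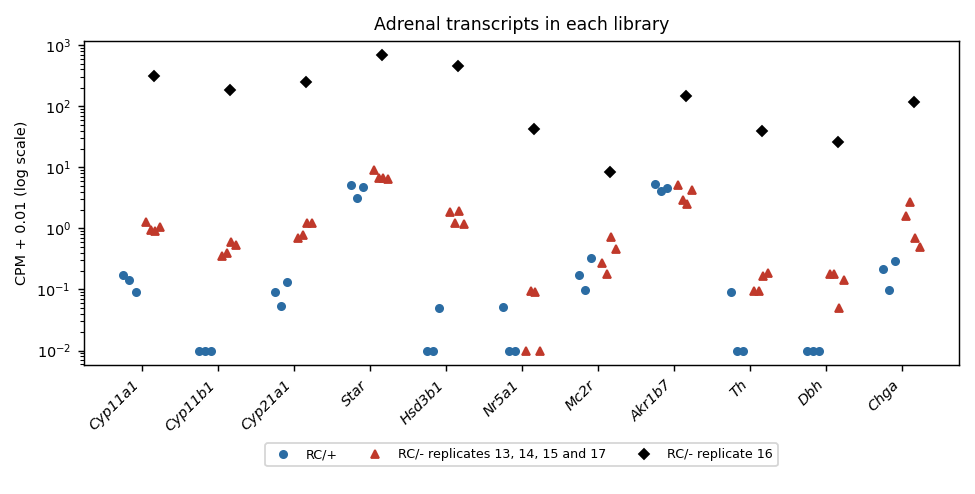
Level (CPM + 0.01, log scale) of 11 adrenal transcripts in RC/+ libraries (circles), RC/- replicates 13, 14, 15 and 17 (triangles) and RC/- replicate 16 (diamonds). Replicate 16 is above every other library for all 11, and the other RC/- libraries are above the RC/+ libraries for Cyp11a1, Cyp11b1, Cyp21a1, Star, Hsd3b1 and Chga. They are also above them for Th and Dbh, but with only 1 to 4 reads in each of these RC/- libraries.

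Of 8 adipocyte genes, 2 were higher. Lep, leptin, was at 0.122, 0.0885 and 0.12 CPM in RC/+ and 3.55, 2.75, 2.86, 5 and 5.22 CPM in RC/- (log2 fold change 4.33, SE 0.72, adjusted p = 3.6e-05), although Adipoq, adiponectin, did not follow it at 8.49, 15.1 and 20.1 CPM in RC/+ and 29.4, 1.86, 0.318, 40 and 21.5 CPM in RC/-. The summed adipocyte list was 117 to 908 CPM in RC/- and 371 to 690 CPM in RC/+, lowest in replicates 14 and 15. The erythroid list summed to 235 to 473 CPM over the 8 libraries with none of 6 tested genes called. The urothelium list summed to 61.3 to 265 CPM in RC/- and 46.4 to 117 CPM in RC/+, and Krt20 alone was called of its 8 genes. Of 5 tested genes of the pancreas, liver and gut list, Ttr was lower at 157 to 178 CPM in RC/+ and 43.5 to 78.2 CPM in RC/- (-1.56), and Apoa1 was higher through replicates 13, 16 and 17, at 0.122, 0.265 and 0.12 CPM in RC/+ and 18.6, 0.422, 0.238, 5.88 and 2.26 CPM in RC/- (log2 fold change 3.13, SE 1.14, adjusted p = 0.034), a call lost without replicate 16 (adjusted p = 0.076). Alb reached 73.1, 0.633, 0.874, 29.4 and 9.11 CPM in the same RC/- libraries. The part of these tissues in the results above was not tested.

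The cystic difference was compared with that of the edited lines, RC/- D18 against RC/+ D18 and RC/- D53 against RC/+ D53, in which Cre also follows the RC/- genotype. These comparisons share no library with the unedited one but come from the same fit, with a shared estimate of spread. They called 60 genes (0.266%) and 587 genes (2.6%). In the D18 line 59 were higher (0.261%) and 1 lower (0.00443%). In the D53 line 554 were higher (2.45%), against 33 that were lower (0.146%). The interaction test, which asks whether the difference is equal in the unedited and the edited line, called 3858 genes (17.1%) for D18 and 2545 (11.3%) for D53. The unedited difference was the higher one for 10.8% and the lower one for 6.31% of genes against D18, and against D53 the shares were 6.55% and 4.73%. Of the 20 largest changes named above, 15 were unequal to the D18 line and 15 to the D53 line. These 20 genes were chosen for a large unedited difference, which enters the test, so a high count follows in part from the choice. Egf had log2 fold changes of -2.98, -0.13 and -0.55 in the unedited, D18 and D53 lines (interaction adjusted p = 9.1e-05 and 0.0010), and C3 of 4.09, 0.15 and 0.91 (3.2e-06 and 0.00014). Acta2 had 2.2, -0.01 and 0.38 (0.00076 and 0.0064). Of 12 principal cell genes, 2 were called higher in the D18 line (median 0.38) and 7 in the D53 line (median 0.89), and the difference was unequal to that of the unedited line for 7 and 4 of the 12. Gata3 was 2.02, 0.77 and 1.3 (interaction adjusted p = 2.1e-05 and 0.0059). Of the adrenal genes none was unequal in the D18 or D53 line, with SEs of the unedited difference as large as 1.48 for Hsd3b1.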

How the data were processed

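RNA-seq was measured in 24 whole kidneys, of which 8 enter this comparison. The authors deposited 1 table of raw read counts per gene (54532 Ensembl genes, whole numbers, no normalization). Per the submitters' processing notes, reads were trimmed with Trim Galore 0.6.3 and aligned to GRCm38 with STAR 2.5.3a. The strand column kept for counting is not given in the sources used here, so overlapping antisense genes cannot be told apart. No column of sample values was left unused (0 columns).

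From the deposited counts, CPM and log2 CPM (total counts, prior count 2) were computed with edgeR 4.0.16, and the 22570 genes whose log2 CPM averaged -3 or more across all 24 libraries were tested with limma-trend (limma 3.58.1, R 4.3.3). The filter and the test follow the study's methods, which state no design; here a mean was fitted for each of 6 groups over all 24 libraries. Tests were two-sided and adjusted by Benjamini-Hochberg over all genes, with calls below 0.05. On simulated counts with known changes the fit recovered 27.3%, 59.7% and 74.6% of genes changed by 0.5, 1 and 2 on the log2 scale. Only 66 or 67 genes were changed at each size, and 8 unchanged genes were called. In the kidneys 37.6% of genes were called, so these rates need not hold there. Replicates are separate mice.

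The comparison, the gene lists (403 genes in 30 lists, 397 of them tested) and the tests were chosen with earlier results of these data known. Genes named are 7 genes of the study and Pkhd1; the 10 largest increases and decreases among called protein-coding genes with at least 5 CPM in the higher group and no overlap between groups; the 5 largest rises and falls in CPM among called protein-coding genes; and per list the 2 members of highest CPM and the 4 of largest change, or, for other tissues, members above 1 CPM in any of the 8 libraries. Those described are a part of them, and some genes are not reported here. Alternatives were TMM and DESeq2 size factors, the edgeR quasi-likelihood test, DESeq2 1.42.0, other filters and prior counts, the 8 libraries alone, sex as a covariate, the 9 noncystic libraries as controls, and leaving out each library. Sequences are from RefSeq (GRCm38.p6); promoter windows (18174, of 14386 genes) were searched for 8 motifs, of which 7 are reported, and near-identical copies were sought with BLAST 2.17.0.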

Additional observations from a re-analysis of the deposited data

Results flagged for a closer look

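RC/- replicate 16 lay far from the other 4 RC/- libraries for the adrenal genes Hsd3b1 (452 CPM against 1.15 to 1.91), Akr1c18 (342 against 0.752 to 1.58), Cyp11b1 (186 against 0.342 to 0.596), Cyp21a1 (246 against 0.684 to 1.23), Cyp11a1 (318 against 0.914 to 1.28), Star (678 against 6.37 to 8.94) and Chga (120 against 0.487 to 2.74). The same library was high for C4b (50.7 CPM against 12.8 to 20) and low for Cyp4f39 (5.04 against 6.67 to 7.12) and Cfb (2.22 against 3.63 to 4.05). Replicate 17 was low for mt-Cytb (6121 CPM against 7359 to 7655), and replicate 14 for Plce1 (21.1 CPM against 24.2 to 25.4). The 5 RC/- libraries were examined in this way for each gene described, 162 in all, and chance alone marks about 1 in 20, or 8.1 of them.

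The cystic difference was tested against that in the edited lines for the 20 genes with the largest changes. It was unequal to the difference in the D18 line for 15 of them and to that in the D53 line for 15. Over all genes tested the shares were 17.1% and 11.3%. The 20 genes were chosen for a large unedited difference, which enters this test. A high count therefore follows in part from the choice.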

How the results depend on the processing

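The number of genes called stayed within 1.5 times 8497 under every scaling, tool, filter and choice of libraries in the fit. With all 8 libraries kept it ran from 7655 with the edgeR quasi-likelihood test and TMM factors to 11092 with all 9 noncystic libraries as controls. Leaving out single libraries gave 7047 to 8499 with total counts, and TMM factors without RC/- replicate 16 gave 7185. The share of higher calls was 67.7% with total counts, 49.7% with TMM factors, 50.4% with DESeq2 size factors, 49.8% with the edgeR quasi-likelihood test and TMM factors, 50.6% with the DESeq2 Wald test and 50.7% without RC/- replicate 16 and with TMM factors. The number of higher calls was 3812 with the edgeR test and TMM factors and 3645 without RC/- replicate 16 and with TMM factors. Requiring a log2 fold change of at least 1 left 2653 genes, 1733 higher and 920 lower. The difference in the number of genes of at least 1 CPM ran from 193.5 to 274.8 genes when single libraries were left out against 242.4, with exact permutation p from 0.0286 to 0.0952. Of 167 genes described (160 with DESeq2 and 150 with the stricter filter), 9 lost their call with TMM factors (Areg, Cd79b, Cdh16, Cldn16, Creb1, Egfr, Hif1a, Mcm2 and Slc12a2) and Pdgfra gained one. Leaving out 1 library also ended calls of Apoa1 (adjusted p up to 0.0966), Chga (0.0507), Cyp11a1 (0.0538) and Ehd3 (0.0766), and gave one to Alb (from 0.0125) and Star (from 0.0162). With the 8 libraries alone 11 calls were lost (Akr1c18, Apoa1, Areg, Cdh16, Chga, Cldn16, Cyp11a1, Cyp11b1, Cyp21a1, Egfr and Slc12a2), and Alb and Star also gained one with the edgeR test and with the 9 controls. Directions turned for genes that were not called. Gapdh was -0.0557 with TMM factors, -0.0505 with DESeq2 size factors, -0.0496 with edgeR and TMM factors, -0.0444 with DESeq2 and -0.0631 with TMM factors without replicate 16. Adipoq was 0.2 with edgeR and TMM factors, 0.352 with edgeR and total counts, 0.209 with DESeq2 and from -1.55 to 0.112 when single libraries were left out, and Pkd2 then ran from -0.0352 to 0.0641. The cause of these changes was not tested beyond the scaling itself. No paired analysis was made because the sample labels used here do not name litters. The study describes breeding pairs that could yield both genotypes, so littermates among these mice cannot be told. Counts of 1 to 15 reads, as for Il6, limit what their fold changes show.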

Other observations

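Of the 22570 genes tested, 45 were called higher in RC/- than in RC/+ kidneys in each of the 3 lines, unedited, D18 and D53. No gene was called lower in all 3. The comparisons share no library, but they come from the same fit, with a shared estimate of spread. The genes named in this and the next paragraph were chosen after their values were seen. Among the 45 were Gata3 and Gata2, transcription factors, with log2 fold changes of 2.02 and 1.42 in the unedited line, and Hsd11b2 of principal cells (1.98). Itgb4, the hemidesmosomal integrin chain, changed by 2.51, Dsp, desmoplakin of desmosomes, by 1.58, Krt80, a keratin, by 1.63, and Esrp1, an epithelial splicing regulator, by 1.21. Aldh1a1, which makes retinoic acid, changed by 2.83. Fgf18, a fibroblast growth factor, was at 0.613, 1.19 and 0.883 CPM in RC/+ and 5.94, 5.53, 8.46, 9.61 and 9.02 CPM in RC/-, and the difference was 3.01 in the unedited, 1.6 in the D18 and 1.42 in the D53 line. Pmaip1, the proapoptotic factor Noxa, was at 5.43, 6.19 and 4.78 CPM in RC/+ and 26.9, 33, 37.5, 37.9 and 60.7 CPM in RC/-, with differences of 2.78, 1.39 and 1.78. For 35 of the 45 the difference in the unedited line was unequal to that in the D18 line by the interaction test, and for 27 it was unequal to that in the D53 line. Over all genes tested the shares were 17.1% and 11.3%. The 45 had to be called in the unedited line, whose difference enters this test, so high counts follow in part from the choice.

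Some of these 45 did not pass the interaction test. Gm8730 (chr8:102864845-102865798, GRCm38), a processed pseudogene, was at 2.82, 2.03 and 2.93 CPM in RC/+ and 59.1, 58.4, 70.1, 77.6 and 70.6 CPM in RC/-. Its log2 fold changes were 4.66 in the unedited, 4.15 in the D18 and 3.99 in the D53 line (interaction adjusted p = 0.13 and 0.055). Gm14165 (chr2:152353615-152354566), a second processed pseudogene, was at 0.0817, 0.0885 and 0.12 CPM in RC/+ and 5.77, 6.97, 6.43, 9.28 and 6.99 CPM in RC/-, with log2 fold changes of 5.33, 4.28 and 4.14. Over 954 aligned bases Gm14165 and Gm8730 were 97.6% identical, and Gm8730 and another of the 45, Gm9625 (log2 fold change 1.86), were 97.8% identical, so their reads may be shared. Mybpc2 had log2 fold changes of 4.56, 3.38 and 3.16 (interaction adjusted p = 0.29 and 0.22). Of the 13 tested genes of the skeletal muscle list, to which it belongs, 13 were called higher in the D53 line (median 4.54) and 2 in the D18 line (median 2.88), against 1, Mybpc2, in the unedited line (median 0.16), and 11 were unequal between the unedited and the D53 line. The part of muscle transcripts in the values of Mybpc2 was not tested. The Cre transgene follows the RC/- genotype in all 3 lines and cannot be told apart from it here.

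By gene type, 31.9% of 16533 protein-coding genes tested were higher in RC/- and 14.3% lower. Of 1273 lincRNA genes 8.96% were higher and 10.4% lower, of 1182 antisense genes 6.77% and 7.11%, and of 1336 processed pseudogenes 6.36% and 3.52%. Cdh16, whose promoter drives the Cre, was at 1433, 1483 and 1467 CPM in RC/+ and 1847, 1954, 1761, 1414 and 1670.1 CPM in RC/- (log2 fold change 0.23, SE 0.09, adjusted p = 0.035), a call lost with TMM factors (adjusted p = 0.47).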
